A study of Mus musculus with 6 samples.

Results

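Transcript levels of BACH1, its relative BACH2, the NRF activators, the small MAF partners and KEAP1 were examined in mouse embryonic stem cells with and without disruption of Bach1. The members were taken by gene symbol: Bach1, Bach2, Nfe2l1, Nfe2l2, Nfe2l3, Keap1, Mafg, Maff and Mafk, 9 of the 18518 gene symbols in the deposited expression table. The rule uses symbols and no measured value, and all 9 had a row. RNA sequencing was carried out on 6 libraries of the established line E14Tg2A, 3 wild type (WT) and 3 with the genotype BACH1-KO. Cells of both genotypes had spent 2 days in medium with serum and murine leukemia inhibitory factor (200 units/ml), which maintains their undifferentiated state. The knockout was made with CRISPR/Cas9 guides on the LentiCRISPR V2 plasmid, puromycin selection and sorting of single-cell clones, and the labels do not say how many clones the 3 BACH1-KO libraries represent. Nothing in the labels states that the libraries of a genotype are separate cultures, so p-values reflect only how far these libraries vary, and that variation may be technical.

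BACH and NRF proteins are relatives of the cap'n'collar group of basic leucine zipper (bZIP) transcription factors. Each binds DNA as a dimer with a small MAF protein at antioxidant response elements and related MAF recognition elements. BACH1 represses there and is released and degraded when heme binds it, while NRF2, the product of Nfe2l2, activates the same elements. KEAP1 holds NRF2 in the cytoplasm for degradation until oxidants or electrophiles modify KEAP1. NRF1, the product of Nfe2l1, is held at the endoplasmic reticulum and activates proteasome genes when proteasome activity is short. The small MAFs have a bZIP region and no activation domain of their own, so pairs of small MAFs alone occupy the elements without activating them.

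The 3 small MAF genes encode short proteins that differ little where they touch DNA, which bears on whether reads of one can be assigned to another. Their coding sequences have 486 bases in Mafg, 468 in Maff and 468 in Mafk (GENCODE M21, stop codon left out). The 60 coding bases most alike in all 3 genes, bases 154 to 213 of each coding sequence, encode part of the basic region that contacts DNA. The sequences are shown because 51 of the 60 bases are the same in all 3, and capitals mark the 9 positions that differ:
Mafg: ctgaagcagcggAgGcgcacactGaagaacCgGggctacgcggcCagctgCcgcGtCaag
Maff: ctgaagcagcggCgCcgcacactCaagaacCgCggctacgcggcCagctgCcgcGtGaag
Mafk: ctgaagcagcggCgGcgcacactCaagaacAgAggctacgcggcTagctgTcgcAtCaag
Over the whole aligned coding sequence Mafg and Maff share 73.9% of bases, Mafg and Mafk 77.5%, and Maff and Mafk 72.4%. The longest run without a difference between any of their annotated transcripts is 23 bases. Bach1 and Bach2 share 62.3% of aligned coding bases with a longest run of 20 bases, and the 3 NRF genes share 57.7% to 60.4% in pairs, with runs of 12 to 17 bases. The read length is not given in the sources used here.

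The promoter sequences of the 9 members, from RefSeq on build GRCm38.p6 (the same assembly as mm10), were searched for binding motifs, since several of these genes are known to be regulated through the elements their own products bind. Each window holds 250 bases before and 50 after an annotated start, 15 windows in all. The antioxidant response element core TGACNNNGC, on either strand, was found in the windows of 4 members, Nfe2l2, Mafg, Maff and Mafk, and in those of 16.2% of the 13611 genes of the table that had a window. Capitals mark the match, written 5′ to 3′ on the strand of the gene:
Nfe2l2, chr2:75704880-75704913, minus strand: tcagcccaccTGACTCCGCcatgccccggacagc
Mafg, chr11:120633746-120633784, minus strand: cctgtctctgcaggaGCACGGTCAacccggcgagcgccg
Maff, first start, chr15:79346494-79346532, plus strand: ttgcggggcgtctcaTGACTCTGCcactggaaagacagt
Maff, second start, chr15:79347476-79347513, plus strand: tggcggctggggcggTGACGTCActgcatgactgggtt
The last line holds a match to the CRE, TGACGTCA, at the second of 3 annotated Maff starts. It is shown because Maff had the largest difference between genotypes among the members. The CRE was found in 1 of 9 members and in 3.08% of genes. Maff has 3 windows, beside 17006 windows for the 13611 genes, and a gene with more windows has more room for a match. The Mafk match to the antioxidant core lies in an annotated exon and is not printed. The E-box CACGTG was found in Maff, Mafg and Mafk (10.6% of genes), and the STAT type core TTCNNNGAA in Bach2 and Maff (8.36% of genes). The AP-1 type core TGANTCA (7.1% of genes) and the ATF4 type core TGATGNAA (3.05% of genes) were in none of the 9. A match is a description of the sequence and not a measured binding site, and some of the 6 motifs were picked with these windows in view.

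Levels are given as FPKM, which divides a gene's fragments by transcript length and by library size, so that genes can be set side by side per length. The table gives no read counts. From genes with 1 annotated transcript and values that match a single fragment, the depth was estimated at 14400000 to 15900000 fragments in WT and 14600000 to 17100000 in BACH1-KO. The search covered a fixed range of depths, so a depth outside it could not have been found. The fragment numbers and counting errors given here rest on this estimate. At the estimated depth and with the longest annotated transcript, Bach2 rested on roughly 47 to 66 fragments in a library, Nfe2l3 on 124 to 179, and Nfe2l1 on 3600 to 6553. Libraries of 1 genotype correlated across the tested genes with Pearson's r of 0.991 to 0.994, and libraries of different genotypes with 0.929 to 0.935 (genes are not independent replicates). Embryonic stem cell markers were abundant in all libraries, their FPKM summing to 10476.7 to 11250.0 in WT and to 6733.3 to 6987.6 in BACH1-KO, and 1 of the 8 markers was higher and 7 lower in BACH1-KO. All 15 hepatocyte markers were higher in BACH1-KO, and none of them was at 0 throughout. Their FPKM summed to 20.01 to 28.4 in WT, where Trf alone averaged 10.1, and to 981.9 to 1024.2 in BACH1-KO. The filter looks at both genotypes together, so a marker low in WT can be tested because of its BACH1-KO level. How many of the 15 were tested for that reason was not counted. Beside these marker counts, 37.3% of all tested genes were called higher and 39.7% lower. Fibroblast feeder markers had 9 rows, of which 2 were tested and both were lower, with sums of 24.6 to 25.4 and 12.7 to 13.4 FPKM, and Col1a2, Col3a1, Postn and Lum stayed under 0.5 FPKM in all 6 libraries. Red cell precursor markers had FPKM sums of 2.22 to 3.33 in WT and of 8.51 to 9.72 in BACH1-KO, and macrophage markers to 23.3 to 30.2 and 18.2 to 19.9 FPKM. The part of these marker differences in the levels of the members was not tested, and in bulk RNA fewer cells of a type and less RNA per cell cannot be told apart.

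The members spanned a wide range of levels, from Nfe2l1 and Nfe2l2 at the top to Bach2 under 1 FPKM. In WT the order of mean levels was Nfe2l1 (53.2 FPKM), Nfe2l2 (46.6 FPKM), Mafg (12.4 FPKM), Maff (12.3 FPKM), Bach1 (8.28 FPKM), Mafk (4.70 FPKM), Nfe2l3 (4.09 FPKM), Keap1 (3.90 FPKM) and Bach2 (0.418 FPKM). The libraries of Mafg and Maff overlapped in WT, as did those of Mafk with Nfe2l3 and of Nfe2l3 with Keap1, so these neighbours were not told apart. The other neighbours in the WT order did not overlap. In BACH1-KO the order differed in the middle: Bach1 (10.4 FPKM) stood above Maff (5.94 FPKM) with no overlap, and Mafg (14.7 FPKM) stood apart from both. Mafk, Keap1 and Nfe2l3 again overlapped with their neighbours, at 4.26, 3.92 and 3.30 FPKM.

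**Figure D1:**
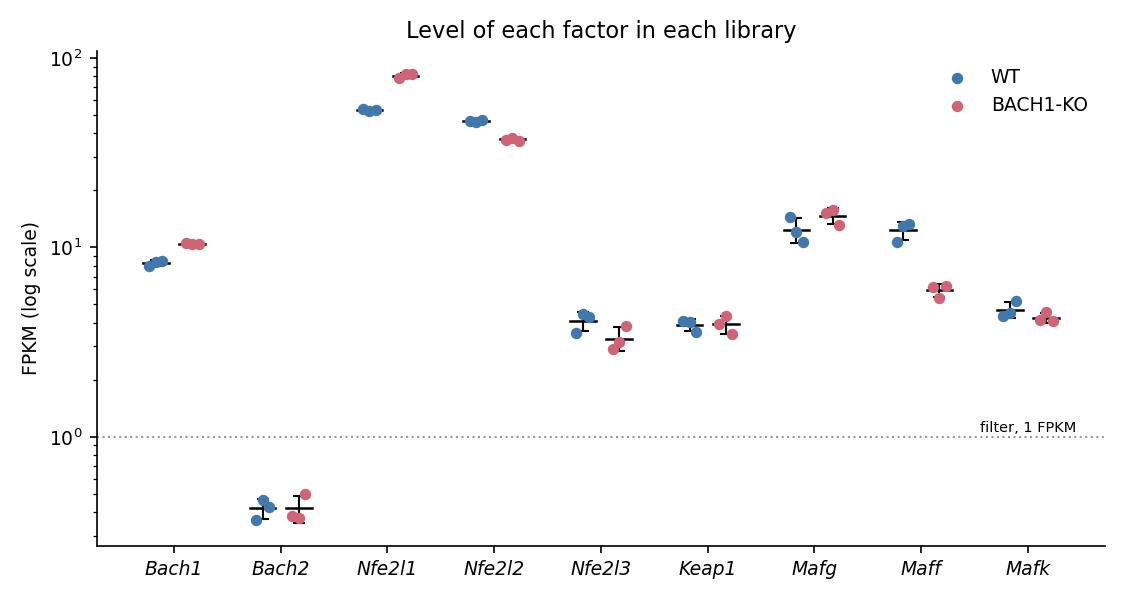
FPKM of the 9 genes on a logarithmic axis, 3 WT libraries (blue) and 3 BACH1-KO libraries (red) per gene, with black bars for the mean and SD and a dotted line at the 1 FPKM filter. Nfe2l1 and Nfe2l2 lie highest, Bach2 lies under the filter in every library, and the genotypes do not overlap for Bach1, Nfe2l1, Nfe2l2 and Maff.

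Of the 8 members with a mean of at least 1 FPKM, Bach1 and Nfe2l1 rose in BACH1-KO, Nfe2l2 and Maff fell, and Nfe2l3, Keap1, Mafg and Mafk did not pass the test. The test was limma on log2(FPKM + 1) with Benjamini-Hochberg adjustment over all 12187 genes tested and a threshold of 0.05. It called 77.0% of all tested genes, 37.3% as higher and 39.7% as lower, against 4 of 8 members with 2 in each direction, so a call by itself does not set a member apart from other genes. The libraries of the genotypes did not overlap for the same 4 members, and for 79.3% of all tested genes. The median log2 fold change was -0.05 over the 8 tested members and -0.01 over all tested genes, whose median absolute log2 fold change was 0.38. Only Maff among the members passed a test against a fold change of 1.5, which 19.0% of tested genes passed.

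**Figure D2:**
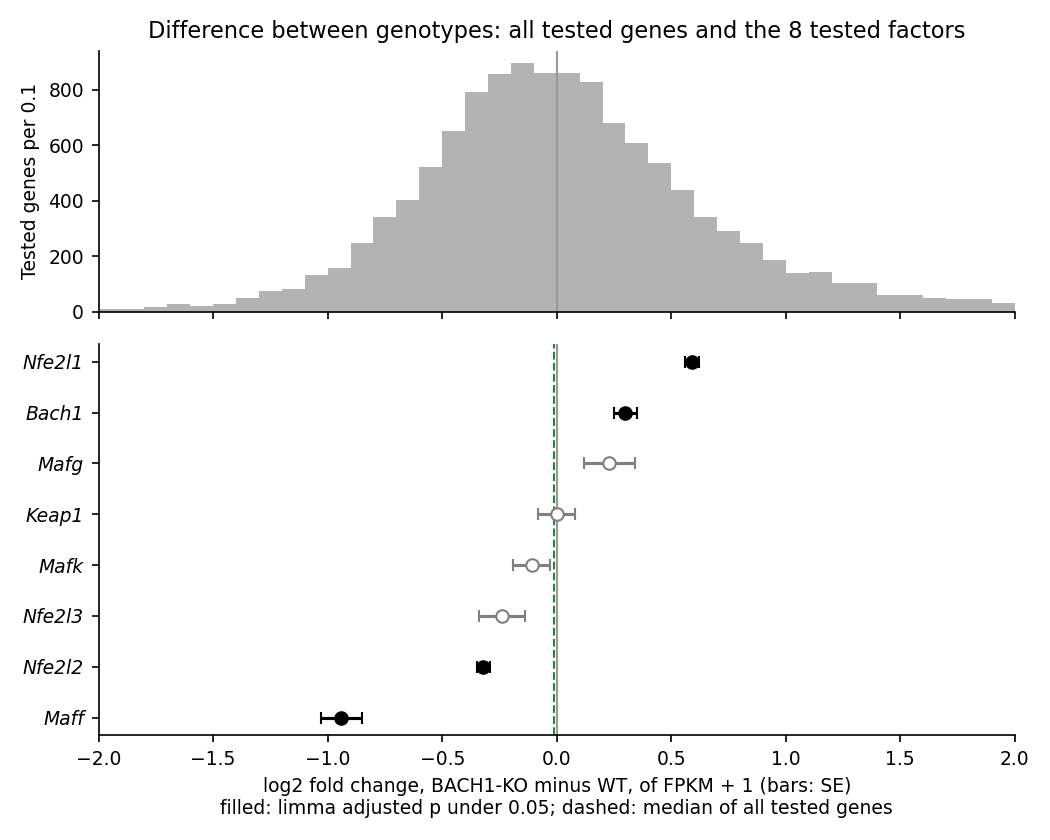
Upper panel: number of tested genes by log2 fold change (BACH1-KO minus WT, of FPKM + 1), in steps of 0.1, with the 217 genes beyond 2 in either direction outside the axis. Lower panel: the 8 tested members with SE bars on the same axis, filled where the limma adjusted p is under 0.05. Maff at -0.94 and Nfe2l1 at 0.59 lie farthest from 0, and Keap1 lies at 0.00.

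Bach1, the disrupted gene, kept its transcript in the BACH1-KO libraries. It lies on chromosome 16 (mm10, bases 87698945 to 87733346, plus strand) and encodes 739 codons. WT libraries 1 to 3 held Bach1 at 7.97, 8.39 and 8.47 FPKM, against 10.5, 10.4 and 10.4 FPKM in BACH1-KO. All 3 knockout libraries were above all 3 WT libraries, and the mean was 26.0% higher (log2 fold change 0.30, SE 0.05, limma adjusted p = 5.15e-04). For Bach1, Nfe2l1, Nfe2l2 and Maff alike, exact permutation of the 6 libraries (two-sided) gave p = 0.1, the smallest that 3 against 3 allow. A gene-level value does not show whether the coding sequence was edited, so it does not check the genotype. The size of this difference was ordinary for these libraries: 41.1% of tested genes had a smaller absolute log2 fold change. The nearest tested genes on each side, Cct8 (log2 fold change -0.68, SE 0.03) and Tiam1 (log2 fold change -0.50, SE 0.08), were lower in BACH1-KO (limma adjusted p = 2.14e-07 and 4.80e-04). Cct8 ends at base 87495873 and Tiam1 starts at base 89787111, so neither adjoins Bach1.

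The tested genes most like Bach1 over the 6 libraries were Rpl35, a ribosomal protein gene, Cmtr1, an mRNA cap methyltransferase gene, and Taf9, a gene of the general transcription machinery. Their root mean square differences from Bach1, in log2(FPKM + 1) after subtracting each gene's own mean, were 0.012, 0.017 and 0.017. The 6 libraries fall into 2 genotypes, so this likeness mostly reads a similar difference between them, and 1524 genes lay within 0.1 of Bach1.

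Bach2, the relative of Bach1 best known from lymphocytes, was barely expressed. The gene is on chromosome 4 (32238804 to 32586108, plus strand). Its level was 0.365, 0.466 and 0.424 FPKM in WT and 0.384, 0.375 and 0.499 FPKM in BACH1-KO. The genotypes overlapped, with means of 0.418 ± 0.0503 and 0.419 ± 0.0694 FPKM (SD, n = 3 per genotype). Bach2 was under the filter and not tested in the main analysis. With no filter its log2 fold change was 0.00 (limma adjusted p = 0.999). Bach1 exceeded Bach2 by 18.0 to 21.8 times in the WT libraries and by 20.9 to 27.7 times in the BACH1-KO libraries, ranges that overlap. The spread of Bach2 between libraries, 12.03% and 16.55% as coefficient of variation (SD over mean), was near the 13.31% and 12.95% that counting error alone would give at the estimated depth. A difference in Bach2 within that spread was not detectable at this depth.

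Nfe2l1 was the most abundant member in both genotypes and rose in BACH1-KO. The gene, on chromosome 11 (96817414 to 96829968, minus strand), has 12 annotated transcripts, which the deposited value does not separate. The libraries were at 53.7, 52.8 and 53.0 FPKM in WT and 78.1, 82.3 and 82.0 FPKM in BACH1-KO. The groups lay far apart relative to their spread, 0.477 and 2.36 FPKM as SD, and the mean was 52.0% higher (log2 fold change 0.59, SE 0.03, limma adjusted p = 1.24e-06). The coefficient of variation in WT, 0.897%, was below the 1.63% that counting error alone would give at the estimated depth. In BACH1-KO it was 2.92%, above 1.28%. Of all tested genes 69.5% had a smaller absolute log2 fold change. By rank among all 18518 genes Nfe2l1 moved from place 2033 in WT to place 1255 in BACH1-KO. Its nearest tested neighbours, Cbx1 (log2 fold change -0.04, limma adjusted p = 0.366) and Copz2 (log2 fold change -0.18, limma adjusted p = 0.117), did not pass.

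Nfe2l2, which encodes the stress-responsive activator NRF2, fell. Its locus is on chromosome 2 (75675513 to 75704641, minus strand). Its level was 46.7, 46.1 and 47.0 FPKM in WT and 37.0, 37.9 and 36.7 FPKM in BACH1-KO. All knockout libraries were below all WT libraries, and the mean was lower by 20.1% (log2 fold change -0.32, SE 0.03, limma adjusted p = 3.78e-05). The coefficients of variation of Nfe2l2, 0.996% in WT and 1.69% in BACH1-KO, were below the 2.39% and 2.59% of counting error at the estimated depth. Those of Bach1, 3.22% and 0.689%, were also below their counting error of 3.69% and 3.18%. Nfe2l1 and Nfe2l2 were near each other in WT and far apart in BACH1-KO. The ratio of Nfe2l1 to Nfe2l2 was 1.15, 1.15 and 1.13 in WT and 2.11, 2.17 and 2.23 in BACH1-KO. Such a ratio within a library does not depend on how libraries are scaled to each other. The ratio of Nfe2l2 to Bach1 transcript was 5.85, 5.50 and 5.55 in WT and 3.52, 3.65 and 3.53 in BACH1-KO, with no overlap. In BACH1-KO the Bach1 transcript is that of the disrupted gene, so this ratio does not give a balance of activator and repressor.

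Nfe2l3, a less studied NRF relative that is also anchored in membranes, was low. It lies on chromosome 6 (51432670 to 51458768, plus strand). Its level was 3.54, 4.43 and 4.30 FPKM in WT and 2.91, 3.16 and 3.84 FPKM in BACH1-KO. The highest knockout library stood above the lowest WT library, and the log2 fold change of -0.24 (SE 0.10) did not pass (limma adjusted p = 0.0602, exact permutation p = 0.2). Whether Nfe2l3 passed depended on single libraries. It passed without the first WT library (log2 fold change -0.32, limma adjusted p = 0.0205) or without the third BACH1-KO library (-0.33, limma adjusted p = 0.0213). It also passed with median-of-ratios scaling (log2 fold change -0.28, limma adjusted p = 0.0383) and after quantile normalization (log2 fold change -0.39, limma adjusted p = 0.00994). Over all its 12 alternatives the adjusted p of Nfe2l3 ran from 0.00994 to 1. Chromosome 6 stood apart from the other members' chromosomes: the median log2 fold change of its 541 tested genes was 0.31, with 59.3% called higher, while the chromosomes of the other 8 members had medians of -0.13 to 0.01. The part of this in the value of Nfe2l3 was not tested.

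Within the NRF family the composition shifted toward Nfe2l1. The summed level of the 3 genes was 103.9, 103.4 and 104.3 FPKM in WT and 118.1, 123.4 and 122.6 FPKM in BACH1-KO. Nfe2l1 made up 51.2% ± 0.450 of that sum in WT and 66.6% ± 0.396 in BACH1-KO (SD, n = 3 per genotype). The share of Nfe2l2 was 44.9% ± 0.249 and 30.7% ± 0.717. That of Nfe2l3 was 3.41%, 4.28% and 4.13% in WT and 2.46%, 2.56% and 3.13% in BACH1-KO. The genotypes did not overlap for any of these 3 shares, although the level of Nfe2l3 itself overlapped. Single genes did not overlap for 79.3% of all tested genes, and no such background was computed for shares, sums or ratios. Shares of one sum are tied, so the rise of Nfe2l1 alone lowers the other 2.

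Keap1, the inhibitor of NRF2, did not differ between genotypes in these libraries beyond its spread. Its locus is on chromosome 9 (21229730 to 21239361, minus strand). Its level was 4.11, 4.01 and 3.58 FPKM in WT and 3.96, 4.32 and 3.49 FPKM in BACH1-KO. The 2 groups interleaved, with a log2 fold change of 0.00 (SE 0.08, limma adjusted p = 0.964), and the sign changed with the scaling, to -0.03 with median-of-ratios scaling and -0.13 after quantile normalization. Of its nearest tested neighbours, Pde4a fell (log2 fold change -0.33, limma adjusted p = 0.00499) and Atg4d, an autophagy protease gene, rose (log2 fold change 0.95, limma adjusted p = 1.41e-06). With Nfe2l2 lower and Keap1 near its WT level, the ratio of Nfe2l2 to Keap1 was 11.4, 11.5 and 13.1 in WT and 9.35, 8.77 and 10.5 in BACH1-KO, with no overlap. Keap1 is overlapped by the antisense gene Gm16754 over 3317 bases. That overlap is of whole gene spans, introns included, and the part of it in exons was not computed. No source used here states that fragments were counted by strand, so reads from bases in exons of both cannot be told apart.

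Among the small MAFs Maff fell, with the largest change of the 8 tested members. The gene is on chromosome 15 (79346621 to 79359076, plus strand). Maff stood at 10.7, 12.9 and 13.3 FPKM in WT and at 6.20, 5.41 and 6.22 FPKM in BACH1-KO. Every knockout library was below every WT library, and the mean was lower by 51.7% (log2 fold change -0.94, SE 0.09, limma adjusted p = 2.25e-05). Tested against a fold change of 1.5 the limma adjusted p of Maff was 0.0124. Of all tested genes 86.4% had a smaller absolute log2 fold change. Its nearest tested neighbours Pla2g6 (log2 fold change -0.35, SE 0.05) and Tmem184b (log2 fold change -0.60, SE 0.05) were also lower in BACH1-KO (limma adjusted p = 1.80e-04 and 1.69e-05). Maff is the small MAF known for induction by cytokines and stress. Its antioxidant core and CRE matches are among the sequences printed above, and their part in the level of Maff was not tested.

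Mafg, the small MAF most studied as a partner of NRF2 and BACH1, did not pass. Its locus is on chromosome 11 (120625117 to 120633600, minus strand). Its level was 14.45, 12.01 and 10.73 FPKM in WT and 15.2, 15.8 and 13.1 FPKM in BACH1-KO. The first WT library was above the third BACH1-KO library, and the log2 fold change of 0.23 (SE 0.11) gave a limma adjusted p of 0.0763 (exact permutation p = 0.2). Without the first WT library Mafg passed (log2 fold change 0.34, limma adjusted p = 0.00872), and also without the third BACH1-KO library (log2 fold change 0.31, limma adjusted p = 0.0404). Over all its 13 alternatives the adjusted p of Mafg ran from 0.00872 to 1. The spread of Mafg between WT libraries, a coefficient of variation of 15.2%, was wider than the 3.30% that counting error would give at the estimated depth. The first WT library was highest of the 3 for Mafg, Nfe2l1 and Keap1 and lowest for Bach1, Bach2, Nfe2l3, Maff and Mafk.

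Mafk, the third small MAF, lies on chromosome 5 (139791513 to 139802653, plus strand). Its level was 4.36, 4.53 and 5.20 FPKM in WT and 4.12, 4.55 and 4.11 FPKM in BACH1-KO. The genotypes overlapped, and the log2 fold change of -0.11 (SE 0.08) did not pass (limma adjusted p = 0.205). It passed in 1 alternative of 12, quantile normalization (log2 fold change -0.23, limma adjusted p = 0.0227), and over all of them its adjusted p ran from 0.0227 to 1. Mafk shares 169 bases with Tmem184a on the other strand, which was at 0.530 and 1.99 FPKM in WT and BACH1-KO, and Mafg shares 124 bases with Sirt7 on the same strand, at 11.9 and 7.87 FPKM. These overlaps too are of whole gene spans, introns included. Reads from the shared bases cannot be assigned to 1 gene without further information.

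The small MAF pool was smaller and held relatively more Mafg in BACH1-KO. The summed level of Mafg, Maff and Mafk was 29.6, 29.5 and 29.2 FPKM in WT and 25.5, 25.8 and 23.4 FPKM in BACH1-KO, with no overlap. The SD of the WT sums was 0.189 FPKM, less than the SD of each of the 3 genes in WT. This did not hold in BACH1-KO, where the SD of the sums was 1.27 FPKM. There it was above the SD of Maff (0.463 FPKM) and Mafk (0.2545 FPKM) and below that of Mafg (1.41 FPKM). Whether the WT sums were closer than counting error would give was not tested. Mafg made up 48.9%, 40.8% and 36.8% of the sum in WT and 59.5%, 61.3% and 55.9% in BACH1-KO. The share of Maff was 36.3%, 43.9% and 45.4% in WT and 24.3%, 21.0% and 26.6% in BACH1-KO. That of Mafk overlapped, at 15.98% ± 1.62 and 17.1% ± 0.831 (SD, n = 3 per genotype). Mafg and Maff were at nearly the same mean level in WT, with ratios of 1.34, 0.928 and 0.809. In BACH1-KO the ratio of Mafg to Maff was 2.45, 2.92 and 2.11. These shares and ratios are given as descriptions, with no test.

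**Figure D3:**
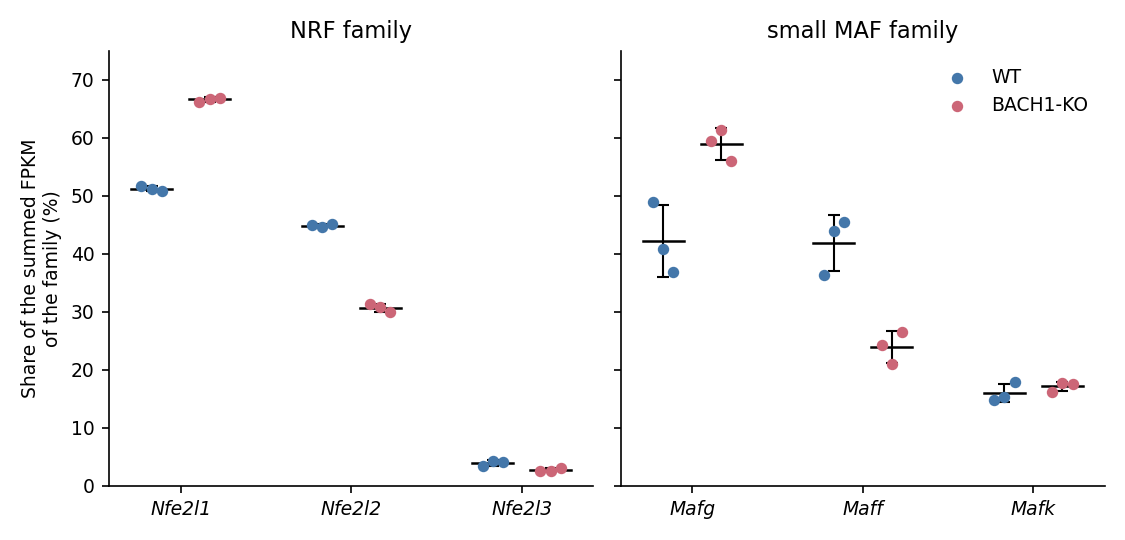
Share of each gene in the summed FPKM of its family, in percent, for the NRF family (left) and the small MAF family (right), with 3 WT (blue) and 3 BACH1-KO (red) libraries, means and SD. Nfe2l1 goes from about 51.2% to 66.6% of the NRF sum and Maff from 41.9% to 24.0% of the small MAF sum, while the Mafk shares overlap.

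The 4 calls among the members held in every alternative run except the test against a fold change of 1.5, where Bach1, Nfe2l1 and Nfe2l2 were no longer called (limma adjusted p = 1 for each). Leaving out 1 library moved the log2 fold change of Bach1 between 0.28 and 0.32, of Nfe2l1 between 0.58 and 0.62, of Nfe2l2 between -0.33 and -0.31 and of Maff between -1.02 and -0.88. The 4 members that did not pass were less settled, and Keap1 alone of the 8 changed sign.

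**Figure D4:**
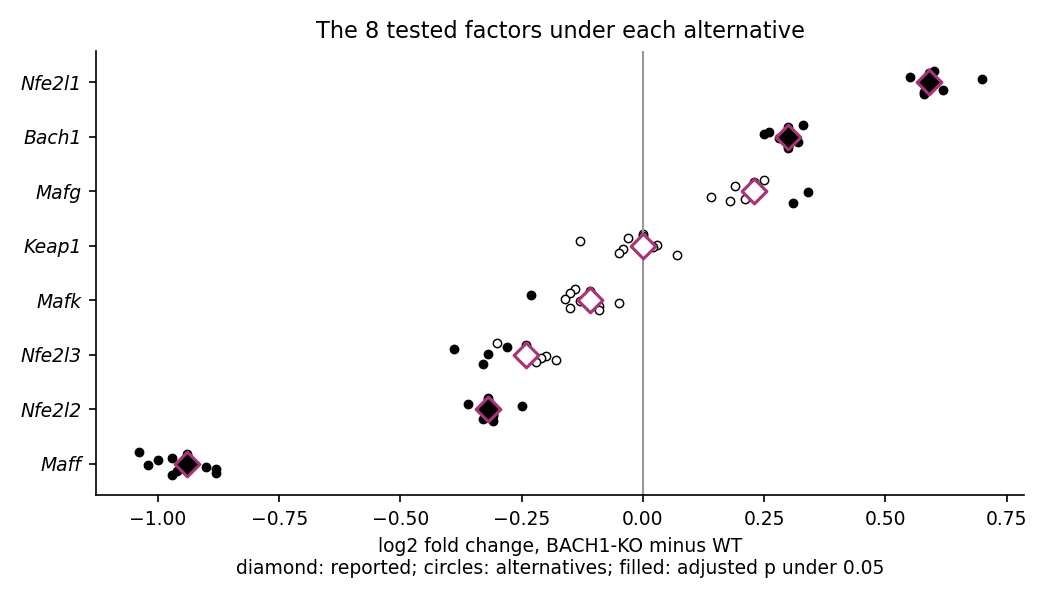
log2 fold change (BACH1-KO minus WT) of the 8 tested members as reported (diamonds) and under the alternatives (circles), filled where the limma adjusted p is under 0.05; the test against a fold change of 1.5, which leaves the fold changes as they are, is not drawn. Maff stays between -1.04 and -0.88, Nfe2l1 between 0.55 and 0.70, and open and filled symbols mix for Mafg, Mafk and Nfe2l3.

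Among genes whose products control these factors after translation, more transcripts fell than rose. Of 24 such regulators 23 were tested, and 13 fell, 4 rose and 6 did not pass, with a median log2 fold change of -0.17. For this and the following lists, the comparison over all 12187 tested genes is 39.7% lower, 37.3% higher, 77.0% called in either direction and a median of -0.01, so the number called among the regulators was near that of genes at large. The KEAP1 partner Cul3, the ubiquitin ligase scaffold that acts on NRF2, fell slightly from 36.4 ± 2.41 to 32.9 ± 0.861 FPKM, and its RING subunit Rbx1 fell from 96.1 ± 1.16 to 58.9 ± 1.12 FPKM. Fbxo22, which marks heme-bound BACH1 for degradation, fell from 81.0 ± 3.00 to 53.0 ± 2.12 FPKM. The 4 that rose were Xpo1, the nuclear exporter that carries BACH1 out of the nucleus (156.0 ± 1.66 to 232.8 ± 1.11 FPKM), the KEAP1-binding autophagy receptor Sqstm1 (196.4 ± 2.73 to 247.6 ± 2.87 FPKM), the NRF2 ligase adaptor Fbxw11 (31.8 ± 0.836 to 38.8 ± 0.200 FPKM) and Ngly1. For NRF1 the processing genes moved in both directions. Ngly1, the glycanase that edits NRF1, rose from 4.84 ± 0.528 to 9.07 ± 0.485 FPKM. Vcp, the ATPase that extracts NRF1 from the membrane, fell from 190.8 ± 3.86 to 110.6 ± 4.88 FPKM, and the protease gene Ddi2 fell from 15.2 ± 0.944 to 11.8 ± 0.442 FPKM. Dpp3, which binds KEAP1, fell from 70.4 ± 2.81 to 36.6 ± 1.89 FPKM. Cul3, Rbx1, Fbxo22, Ddi2, Sqstm1 and Fbxw11 were named after their values were seen.

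Among genes listed from general knowledge as targets of BACH1 and NRF2, more fell than rose in BACH1-KO. Of 61 genes in 5 lists 55 were tested, and 37 fell, 13 rose and 5 did not pass, beside 39.7% lower and 37.3% higher over all tested genes. Their median log2 fold change was -0.49 beside -0.01. Genes averaging at least 5 FPKM leaned lower too: of 8613 such genes 3862 were lower and 2942 higher, with a median of -0.07. The main filter at 1 FPKM left out genes with higher values in BACH1-KO: for Slc7a11, Osgin1, Aox1 and Ugt1a6a every BACH1-KO library was above every WT library. Tbxas1, also under the filter, overlapped. With no filter the genes called higher were 5 in place of 4 for glutathione and 4 in place of 3 for thioredoxin and peroxide. For quinone and aldehyde they were 4 in place of 2, and the lower counts of these lists did not change. Of the heme and iron list 6 of 12 fell, 3 rose and 3 did not pass, a number called near the 77.0% of all tested genes. Hmox1, the heme oxygenase gene that BACH1 is best known for repressing, was at 353.1 ± 38.6 FPKM in WT and 101.7 ± 3.45 FPKM in BACH1-KO, and Blvra, the next enzyme of heme breakdown, at 20.7 ± 0.698 and 8.53 ± 0.351 FPKM, both calls as lower. Those that rose were the iron exporter Slc40a1, the porphyrin transporter Abcb6 and Trf, which encodes transferrin and is also one of the 15 hepatocyte markers that were all higher. Slc40a1, at 0.718 ± 0.175 FPKM in WT and 2.78 ± 0.286 FPKM in BACH1-KO, passed the filter only through its BACH1-KO level. The part of the hepatocyte markers in this list was not tested.

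In each of the other 4 target lists the genes that fell outnumbered those that rose, as they did to a small degree over all tested genes (39.7% lower and 37.3% higher). Of 15 tested glutathione genes 11 fell and 4 rose: Gclm, the modifier subunit of glutathione synthesis, fell from 41.3 ± 1.35 to 26.5 ± 1.03 FPKM, as did the peroxidase gene Gpx2 (16.6 ± 1.22 to 5.75 ± 1.01 FPKM) and Ggt1 (11.6 ± 0.464 to 3.46 ± 0.333 FPKM). By contrast Mgst1 rose from 5.31 ± 0.319 to 55.6 ± 1.75 FPKM and Gpx4, the lipid peroxidase, from 628.5 ± 80.2 to 1687.0 ± 67.3 FPKM, with Gsta3 and Gstm3. Slc7a11, the cystine transporter gene, was under the filter at 0.169 ± 0.0663 and 0.948 ± 0.0767 FPKM. Of 9 tested thioredoxin and peroxide genes 6 fell, among them Txn1 (511.2 ± 16.2 to 298.7 ± 3.31 FPKM), Sod2 and Txnrd1 (73.9 ± 1.93 to 64.8 ± 1.79 FPKM), and Sesn2 (11.6 ± 0.582 to 40.6 ± 2.02 FPKM), Prdx6 and Srxn1 rose. After quantile normalization the call of Txnrd1 was lost (log2 fold change -0.07 in place of -0.19, limma adjusted p = 0.0766), and 4 genes of this list were lower in place of 6. Of 8 NADPH and metabolism genes 7 fell, led by Me1 (25.2 ± 0.630 to 9.73 ± 0.490 FPKM), and by Pgd, and Mthfd2 rose (38.7 ± 3.38 to 95.6 ± 3.02 FPKM). Of 11 tested quinone and aldehyde genes 7 fell, among them Cbr3, Ugdh and Nqo1, the quinone reductase (24.0 ± 1.49 to 19.4 ± 0.581 FPKM), and Aldh3a1 and Akr7a5 rose.

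Most proteasome genes, the known targets of NRF1, fell, while Nfe2l1 transcript rose. All 37 were tested: 28 fell, 3 rose (Psmc3, Adrm1 and Psmb5) and 6 did not pass, beside 39.7% lower and 37.3% higher over all tested genes. The median log2 fold change of the list was -0.36, beside -0.01 over all tested genes and -0.07 over genes averaging at least 5 FPKM. Psmd2 fell from 244.7 ± 5.32 to 123.5 ± 2.71 FPKM and Psmd1 from 163.1 ± 4.36 to 83.8 ± 1.23 FPKM. The 3 that rose had log2 fold changes of 0.07 to 0.15, and their number was 1 without the second WT library, 1 without the second BACH1-KO library, 1 with median-of-ratios scaling and 6 after quantile normalization.

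Other bZIP factors can share sites or partners with these factors. Of 18 listed 9 were under the filter and not tested, and of the other 9, 7 rose and 2 fell, beside 77.0% of all tested genes called. Atf3 and Batf passed the filter only through their BACH1-KO level, so these counts are a description. The risen genes ran from Fos, with a log2 fold change of 0.22, to Atf3, with 3.33, and the libraries of Batf overlapped between the genotypes. Atf4 rose from 91.7 ± 5.88 to 419.2 ± 11.7 FPKM and Atf3 from 0.543 ± 0.102 to 14.6 ± 0.956 FPKM, and both encode stress-response factors. Junb, an AP-1 subunit gene, fell from 9.95 ± 0.263 to 6.75 ± 0.864 FPKM, and Mafa, a large MAF gene, from 8.66 ± 0.155 to 4.16 ± 0.676 FPKM. Nfe2, the blood-cell relative of the NRF genes, was at 1.38 ± 0.367 and 0.547 ± 0.161 FPKM and under the filter on the mean of all libraries.

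**Figure D5:**
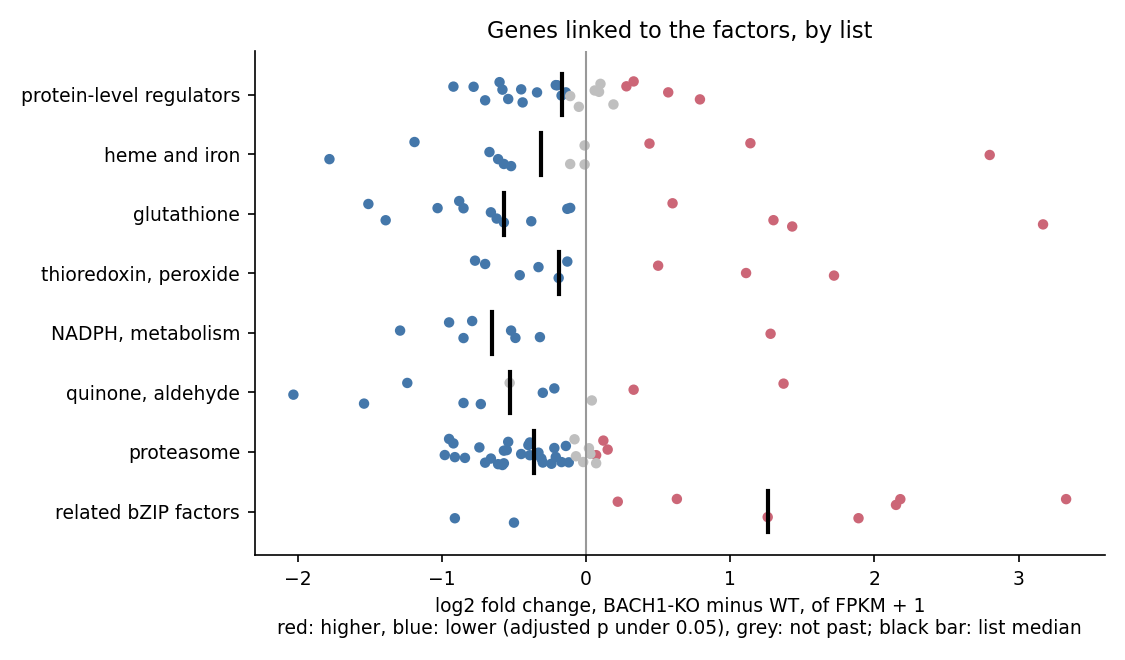
log2 fold change (BACH1-KO minus WT, of FPKM + 1) of each tested gene in 8 lists linked to the factors, red where higher and blue where lower at a limma adjusted p under 0.05, grey where not past, with a black bar at the list median. The medians lie between -0.65 and -0.17 for 7 of the lists and at 1.26 for the related bZIP factors.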

How the data were processed

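RNA-seq of 3 WT and 3 BACH1-KO libraries was used as the deposited table of FPKM, made by the authors with Cufflinks on mm10 per the submitters' processing notes (versions, aligner and annotation: not given in the sources used here). Columns name the genotype but no single sample title, so each was a replicate with no number or pairing, and 0 columns were left unused. Rows with a number in place of a symbol (23, 0.0987% of the summed FPKM) were left out. FPKM is a share of the library, so a large rise of some transcripts lowers others.

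The main test was limma (3.58.1, run in R 4.3.3), two-sided, on log2(FPKM + 1), with moderated variances that follow a mean-variance trend and Benjamini-Hochberg adjustment. It was checked on simulated data with independent noise and far fewer changed genes than were called here. That check therefore does not show how the test performs in these libraries. Genes averaging under 1 FPKM were not tested. Because 1 is added before the logarithm, the fold changes of low genes come out too small. Depth was estimated from values matching a single fragment in genes with 1 annotated transcript of at least 3000 bases, and is approximate. It rested on 22 to 39 such genes in a library and was sought only within a range of depths set beforehand. Gene positions are from GENCODE M21 (GRCm38) and promoters from RefSeq. The lists were written from general knowledge, not from binding measured in these cells, and the members and lists were chosen with earlier results of these data known. All 9 members are named, with up to 2 genes per list and direction with the largest change among those called whose libraries separate the genotypes, 6 sentinel genes (Hmox1, Nqo1, Gclm, Txnrd1, Slc7a11 and Nfe2) and the 3 genes most like Bach1. Genes named outside this rule were chosen after their values were seen. Alternatives covered the pseudocount, the filter, 2 scalings, a constant prior variance, a test against a fold change of 1.5 and leaving out each library.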

Additional observations from a re-analysis of the deposited data

How the results depend on the processing

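Only the stricter test against a fold change of 1.5 moved the counts over all genes, members and linked lists by more than 1.5 times: 2319 genes passed in place of 9378, 1 member (Maff) in place of 4, and in the 8 linked lists 14 in place of 27 higher and 27 in place of 80 lower. Counts of single lists moved mostly in that test, and otherwise for the quinone and aldehyde list (4 higher with no filter, 1 with the filter at 5 FPKM), the related bZIP factors (4 higher with that filter) and the proteasome genes (given above). The filter at 5 FPKM left Nfe2l3, Keap1 and Mafk untested. The log2 fold change of Keap1, at 0.00 as reported, changed sign with median-of-ratios scaling (-0.03) and quantile normalization (-0.13), and ran from -0.05 to 0.07 when 1 library was left out, including -0.04 without the third WT library and -0.00 and -0.05 without the first and second BACH1-KO libraries. No paired analysis was possible because the columns of the table carry no number that ties them to a sample title. Depth limits Bach2 most, at an estimated 47 to 66 fragments in a library, and then Nfe2l3, at 124 to 179.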
